A study of Mus musculus with 9 samples.

Results

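The GATA, TAL and Sox14 selector genes are 8 transcription factor and cofactor genes of the GABAergic lineage: Gata2, Gata3, Tal1, Tal2, Sox14, Zfpm1, Zfpm2 and Helt. They were chosen by gene symbol, and each of the 8 was found once among the 32661 entries of the count table that remain after spike-in and mitochondrial entries are left out. Single cells of the mouse ventral midbrain were sorted into multi-well plates and their RNA was counted by CEL-seq2, a method that tags the 3' end of each transcript with a cell barcode and a molecular barcode. The mice behind every plate were VGAT-Cre:Ai14:Pitx3-GFP animals. In them, Cre under the control of the vesicular GABA transporter gene switches on tdTomato (tdT) and the dopamine neuron gene Pitx3 is reported by GFP. VGAT plates hold tdT+ cells (4 plates from embryos at E16.5, 3 from newborns at P0.5), and VGAT+Pitx3 plates hold tdT+GFP+ cells, with 1 plate at each stage. All comparisons are therefore within 1 genotype, and the mark by which the cells were sorted records past or present activity of the VGAT gene and not GABA itself. Brains of several litters were used, and no source used here ties a plate to an animal, so plates are the replicates and p-values measure the spread between plates.

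Selector genes set the identity that a neuron takes on when its precursor leaves the cell cycle. Gata2 and Gata3 encode zinc finger proteins that bind the letters GATA, Tal1 and Tal2 encode basic helix-loop-helix proteins that bind E-boxes and can join GATA factors in 1 complex, and Sox14 encodes an HMG-box repressor found in subsets of GABAergic neurons. Zfpm1 and Zfpm2 encode FOG proteins, cofactors that bind the zinc finger of GATA factors without contacting DNA themselves, and Helt encodes a Hes-related repressor of dividing GABAergic precursors in the midbrain. In the embryonic midbrain and anterior hindbrain, loss of Gata2, Helt or the Tal genes is known to turn precursors of GABAergic neurons towards a glutamatergic fate.

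Of 3455 wells, 2035 cells were kept, which had 2000 or more genes, no more than 50000 counts and under 15% of counts from mitochondrial genes. The VGAT plates held 1460 of them (44 to 305 a plate) and the VGAT+Pitx3 plates 575, of which 304 were of the E16.5 plate. The cells of a plate summed to between 1435919 and 5408710 counts, and the median count per cell ranged from 7043 to 33272 between plates. The sort labels went with their markers: Pitx3 was at 0 to 0.38 CPM (counts scaled to a common library total) on the VGAT plates and at 147 and 76.7 CPM on the VGAT+Pitx3 plates, while Slc32a1, the VGAT gene, was at 158 to 323 CPM and at 224 and 280 CPM. Gad1, which encodes a GABA-synthesising enzyme, was at 786 to 1216 CPM on the VGAT plates and at only 14.4 and 10.1 CPM on the VGAT+Pitx3 plates, so this defining GABAergic gene is close to absent from the sorted tdT+GFP+ cells. The cell names carry 2 plate labels, of which the first goes with the sample titles and is used here, and the second differs from it in stage or sort on 6 of the 9 plates. Where the 2 labels differ in sort, the Pitx3 levels went with the first label. VGAT P0.5 replicate 2 stands apart in summed astrocyte and radial glia markers (351 CPM, against 3.20 to 10.5 on the other VGAT plates, with all 5 of 5 markers found), and the VGAT+Pitx3 plates had 148 and 137 CPM of them.

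Promoter sequence is shown for the 4 genes that divide the VGAT cells in the comparisons given further on. Each run holds the 250 bases before the first annotated start in RefSeq on GRCm38.p6, written 5' to 3' on the strand of the gene, and capitals mark a match on either strand to AGATAA, which GATA factors can bind, or to CANNTG, the E-box.

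Gata2 (chr6:88193641-88193890, plus strand): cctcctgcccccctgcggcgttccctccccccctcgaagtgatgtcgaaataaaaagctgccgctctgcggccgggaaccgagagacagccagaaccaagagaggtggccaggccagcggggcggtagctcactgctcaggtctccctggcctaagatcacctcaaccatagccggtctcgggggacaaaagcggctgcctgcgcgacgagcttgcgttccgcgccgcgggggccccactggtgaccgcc

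Gata3 (chr2:9878601-9878850, minus strand): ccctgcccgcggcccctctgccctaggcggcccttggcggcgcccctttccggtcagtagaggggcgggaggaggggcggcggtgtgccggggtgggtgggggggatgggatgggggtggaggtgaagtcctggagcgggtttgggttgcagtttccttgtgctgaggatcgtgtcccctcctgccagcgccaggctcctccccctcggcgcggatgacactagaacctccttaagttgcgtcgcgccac

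Tal1 (chr4:115056176-115056425, plus strand): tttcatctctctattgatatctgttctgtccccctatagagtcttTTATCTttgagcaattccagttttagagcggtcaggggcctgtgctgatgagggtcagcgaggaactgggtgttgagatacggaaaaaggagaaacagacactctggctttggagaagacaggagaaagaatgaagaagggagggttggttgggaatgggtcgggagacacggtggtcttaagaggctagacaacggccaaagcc

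Sox14 (chr9:99876171-99876420, minus strand): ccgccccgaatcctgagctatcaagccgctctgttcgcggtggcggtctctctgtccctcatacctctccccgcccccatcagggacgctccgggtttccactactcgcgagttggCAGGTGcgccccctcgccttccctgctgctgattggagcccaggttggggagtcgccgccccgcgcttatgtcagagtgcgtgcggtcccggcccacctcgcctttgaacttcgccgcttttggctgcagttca

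The Tal1 window holds 1 match to AGATAA, read as TTATCT, which starts 205 bases before the gene, and none of the other 8 windows of these genes holds one (7 of the 8 genes have an entry, Gata2 and Tal1 with 2 windows each). Of all 32851 promoter windows of this length, 9.99% hold AGATAA on either strand. The Sox14 window holds 1 E-box, CAGGTG, which starts 134 bases before the gene, and the windows of Tal2 and Helt hold 1 each, whereas 66.2% of all windows hold at least 1. The Gata2, Gata3 and Zfpm1 windows hold neither motif, and these letters were searched in this stretch only. GC content ran from 48.8% in the first Tal1 window to 74.0% in the second Gata2 window, against a median of 52.4% over all windows.

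By the annotation used for names (GENCODE, GRCm38), Gata2 lies at chr6:88193891-88207032, Gata3 at chr2:9857078-9890034, Tal1 at chr4:115056426-115071755, Tal2 at chr4:53779705-53788712 and Sox14 at chr9:99874106-99876170. Zfpm1 spans chr8:122282141-122337251, Zfpm2 chr15:40655035-41104592 and Helt chr8:46292039-46294671. Sox14 is the shortest of them, with 2065 bases and at most 2 annotated exons, and Zfpm2 the longest, with 449558 bases. Gata3 shares its strand with 9230102O04Rik inside its bounds (404 counts on the VGAT plates against 15387 for Gata3) and Zfpm1 shares its strand with Gm20388 (12539 against 585 counts), so reads of these pairs may have been divided between the entries, and Zfpm1 values in particular are uncertain.

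**Figure D1:**
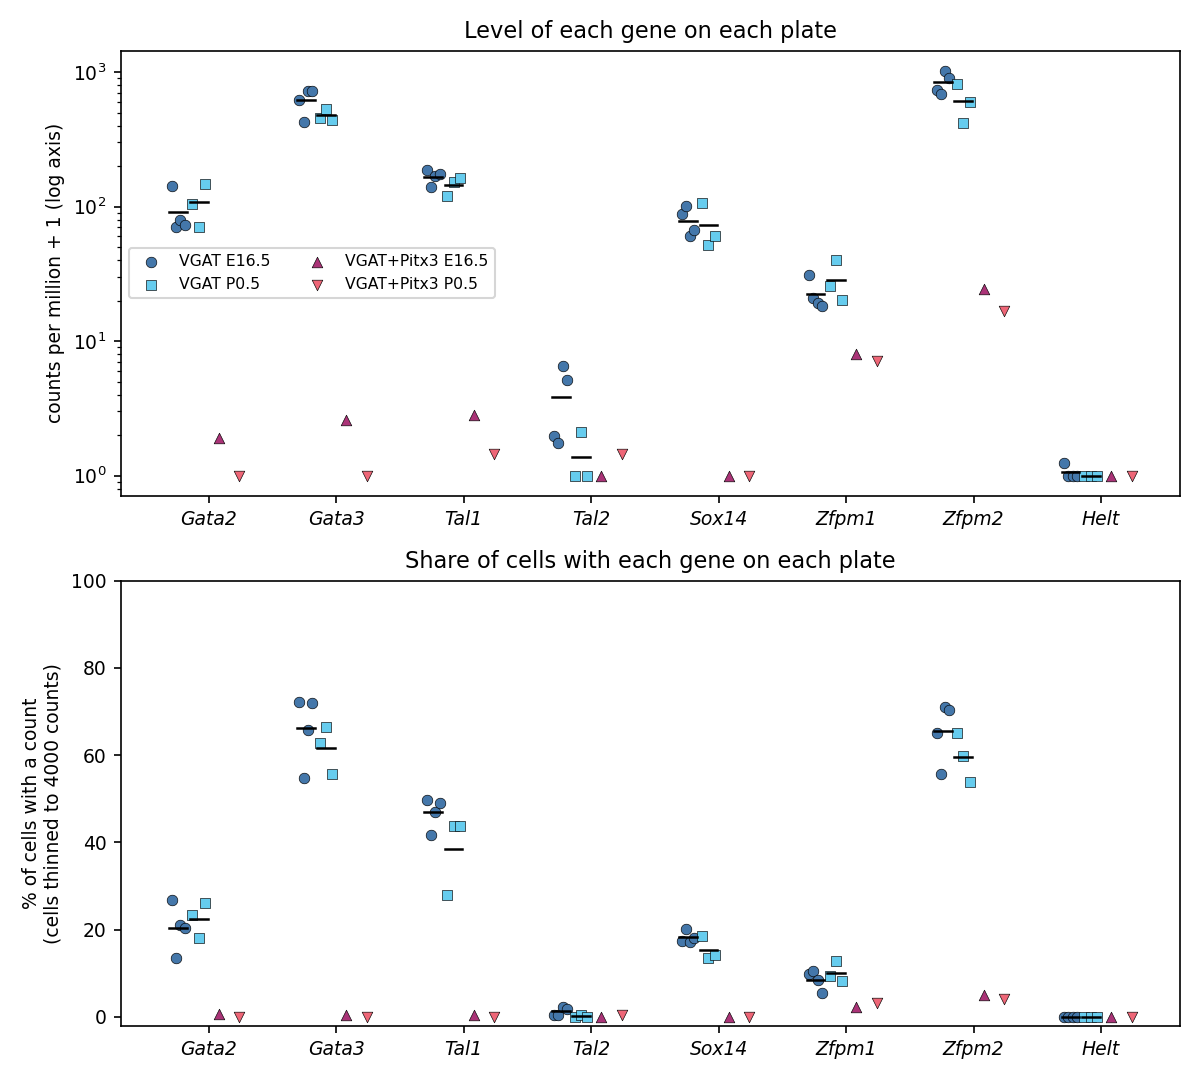
Top, level of each gene on each plate, as TMM-scaled CPM plus 1 on a log axis. Bottom, share of cells thinned to 4000 counts that have a count of the gene, in percent. Each point is 1 plate, coloured by sort and stage, and bars mark the mean of the VGAT plates of a stage. Gata3 sits between 425 and 729 CPM on all 7 VGAT plates and at 1.57 and 0 CPM on the VGAT+Pitx3 plates, and Zfpm1 shows the smallest gap between the sorts among the 6 genes that differed.

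All of these genes except Helt and Tal2 were readily detected in VGAT cells. Gata3 was at 618, 425, 729 and 721 CPM on the E16.5 VGAT plates (replicates 1 to 4) and at 458, 533 and 441 CPM on the P0.5 VGAT plates (replicates 1 to 3). Its counts came from most cells: after every cell was thinned to 4000 counts to even out depth, 64.2% ± 7.01 (SD, n = 7 plates) of VGAT cells had at least 1 Gata3 count, and 81.0% ± 5.37 had 1 before thinning. Gata3 thus marked a majority of the sorted cells on every VGAT plate, from 54.8% to 72.1% of thinned cells.

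Gata2, which precedes Gata3 in the midbrain lineage, was at 142, 69.6, 78.8 and 71.4 CPM at E16.5 and at 103, 69.1 and 147 CPM at P0.5. It was found in 21.3% ± 4.6 of thinned VGAT cells (n = 7), with a range of 13.6% to 26.8%. The stages overlapped, and 1 plate of each stage (E16.5 replicate 1 and P0.5 replicate 3) lay well above the others of its stage.

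Tal1 was the steadiest of the genes over plates, with 185, 139, 168 and 173 CPM at E16.5 and 119, 152 and 162 CPM at P0.5. It was found in 43.3% ± 7.41 of thinned VGAT cells, from 27.9% to 49.7%. Its relative Tal2, which is known to act in the early midbrain, was close to the limit of detection, with 60 counts in all VGAT cells together and 0 to 5.50 CPM per plate. Of the 60 counts, 58 came from E16.5 plates, and 2 of the 3 P0.5 plates had none.

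Sox14 was at 86.4, 99.3, 59.6 and 65.9 CPM at E16.5 and at 105, 51.0 and 59.6 CPM at P0.5, and it was found in 17% ± 2.41 of thinned VGAT cells. The share of cells varied little, from 13.4% to 20.2% of a plate.

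The cofactor Zfpm2 was at 737, 685, 1019 and 911 CPM at E16.5 and at 817, 418 and 597 CPM at P0.5, in 63.0% ± 6.78 of thinned VGAT cells. The cofactor Zfpm1 was at 30.0, 19.9, 18.2 and 17.2 CPM at E16.5 and at 24.8, 38.9 and 19.2 CPM at P0.5, in 9.24% ± 2.28 of thinned cells. Helt gave a single count in 1 cell of VGAT E16.5 replicate 1 and none elsewhere, and a count of 0 on a plate allows a level of up to 0.555 to 2.09 CPM.

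Many VGAT cells had counts of more than 1 of Gata2, Gata3 and Tal1. The shares that independent detection of the 3 would give were not computed, so the shares below do not by themselves show an association. Of thinned VGAT cells, 77.6% ± 6.40 (n = 7 plates, 66.7% to 85.8%) had a count of at least 1 of Gata2, Gata3 and Tal1: 34.6% ± 3.06 had 1 of the 3, 34.8% ± 4.67 had 2 and 8.25% ± 2.05 had all 3. A cell without a count may still express a gene at this depth, so the shares with at least 1 and with all 3 are lower limits, and those with exactly 1 or 2 may lie either way. The same share on the VGAT+Pitx3 plates was 1.00% at E16.5 and 0% at P0.5. The VGAT cells without any of the 3 were not spread evenly: 35.2% of them fell into 1 cluster with Dlx genes, named hypothalamus-like (Hy-like), and 13.4% into a rostral interpeduncular nucleus-like (rIPN-like) cluster with Pax7 and Otp.

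The first comparison asks whether VGAT+Pitx3 cells, which carry dopamine neuron markers, share these selector genes with the VGAT cells of the same mice. Gata2, Gata3, Tal1 and Sox14 were almost absent from them, and the cofactors were present at lower levels: 6 of the 7 genes that passed the filter on low counts were lower on the VGAT+Pitx3 plates by edgeR's quasi-likelihood test (Benjamini-Hochberg adjusted p under 0.05), where 8.93% of all 14624 genes passed, 4.73% higher and 4.2% lower. The summed astrocyte and radial glia markers moved with the sorts too, at 148 and 137 CPM on the VGAT+Pitx3 plates and a median of 9.10 CPM on the VGAT plates, and their part in the result was not tested. The genes called were Gata2, Gata3, Tal1, Sox14 and both cofactors, and the size of the difference ran from 3.42-fold for Zfpm1 to 578-fold for Gata3, with only a lower bound for Sox14. Less RNA of a gene per cell and fewer cells with it cannot be told apart from the sums, and the share of cells is given beside them for Gata3.

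Gata3 had 7 counts on both VGAT+Pitx3 plates together, 1.57 CPM at E16.5 and 0 at P0.5, against 15387 counts on the VGAT plates. The pooled ratio was 578-fold (95% counting interval 281 to 1439), with a log2 difference of -9.08 (SE 0.43, edgeR adjusted p = 2.83e-09). The 7 counts came from 3 cells, with 5 in 1 of them. This interval and those below leave out the spread between cells and plates. Thinned cells with Gata3 made up 0.334% and 0% of the VGAT+Pitx3 plates, whose median depths of 13866 and 7466 counts per cell lay within the range of the VGAT plates.

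Gata2 had 4 counts (0.899 and 0 CPM), a pooled ratio of 165-fold (64.3 to 606) and a log2 difference of -7.26 (SE 0.64, edgeR adjusted p = 2.31e-06). Tal1 had 9 counts (1.80 and 0.441 CPM), a pooled ratio of 125-fold (65.6 to 273) and a log2 difference of -6.87 (SE 0.31, edgeR adjusted p = 2.18e-09). Sox14 had no count in any of the 575 cells, against 1978 counts in VGAT cells, and was at least 174-fold lower with the limit for a count of 0 set at 3 counts over both plates. Every VGAT plate lay above both VGAT+Pitx3 plates for each of these genes, which holds for 6.84% of all genes tested, and the opposite for 7.58%.

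Among the cofactors, Zfpm2 was at 23.6 and 15.9 CPM on the VGAT+Pitx3 plates with 141 counts, 38.5-fold below the VGAT plates (32.6 to 45.7, log2 difference -5.18, SE 0.31, edgeR adjusted p = 3.38e-08). Zfpm1 was at 6.97 and 6.17 CPM with 45 counts, 3.42-fold below (2.52 to 4.74, log2 difference -1.79, SE 0.33, edgeR adjusted p = 0.00242), and its groups of plates did not overlap. The same-strand entry Gm20388 had 3411 counts on the VGAT+Pitx3 plates and 12539 on the VGAT plates, against 45 and 585 for Zfpm1. Reads of the pair may have been divided, so the Zfpm1 difference is uncertain. Tal2 had 1 count and did not pass the test (log2 difference -3.31, SE 1.63, edgeR adjusted p = 0.312), with a counting interval that ran from 2.73-fold to 634-fold.

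What remained of Gata2, Gata3 and Tal1 in the VGAT+Pitx3 sort lay mostly in few cells. Of the 575 cells, 561 fell into 3 clusters with dopamine neuron markers and 14 into other clusters, and these 14 cells held 3 of the 4 Gata2 counts, 6 of the 7 Gata3 counts, and 7 of the 9 Tal1 counts. Zfpm2 had 75 of its 141 counts in 52 cells of the 3 dopaminergic clusters and 66 in the 14 cells, and Zfpm1 had 43 of its 45 counts in the 3 dopaminergic clusters, with 1 or 2 counts in each cell that had any. No test was made of this division, because the clusters were built from the same cells.

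Genes around the selector genes moved in both directions between the sorts. Among 32 other transcription factors of GABAergic lineages, 28 were tested, 20 were lower and 3 higher on the VGAT+Pitx3 plates, with a median log2 difference of -4.50 against 0.00 (-0.000681) over all genes. Lhx5 (-5.93, SE 0.32), Meis2 (-7.67, SE 0.47) and Six3 (-7.00, SE 0.44) are examples of those that fell, and En1 (3.35, SE 0.22), En2 (3.37, SE 0.36) and Foxp2 (1.61, SE 0.21) were those that rose. En1 and En2 are homeobox genes of the midbrain that dopamine neurons need.

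Among 28 partners of the GATA-TAL complex, 26 were tested, 6 were lower and 4 higher, with a median log2 difference of 0.07. Lmo1 (-4.71, SE 0.47) and Lmo2 (-2.61, SE 0.38), which bridge TAL and GATA proteins, and the corepressor gene Cbfa2t3 (-2.45, SE 0.19) fell, whereas their relatives Lmo3 (0.86, SE 0.12) and Lmo4 (1.59, SE 0.11) and the E-protein genes Tcf4 (0.79, SE 0.16) and Tcf12 (1.57, SE 0.11) rose. Among the GABA output genes, Gad1 fell (-6.37, SE 0.25), Gad2 rose (0.83, SE 0.12), and Slc32a1 did not pass the test. Of the glutamate and serotonin fate genes, 3 of 10 were tested, and Slc17a6, the vesicular glutamate transporter gene (5.25, SE 0.52), and Lmx1b, a factor of dopamine and serotonin neurons (7.71, SE 0.40), rose. Of 8 relatives of the selector genes, 3 were tested, and Sox21, the closest relative of Sox14 (-3.66, SE 0.52), and the helix-loop-helix gene Nhlh1 (-3.41, SE 1.00) fell.

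The second comparison asks whether the levels changed between E16.5 and P0.5 in VGAT cells. None of them passed the test: 0 of the 6 genes tested passed, where 4.58% of all 13639 genes did (2.84% higher and 1.74% lower at P0.5), and 1 of the 6 (Zfpm2) had an unadjusted p under 0.05, as did 2 of 6 with DESeq2 with none past its adjusted threshold. The largest difference was that of Zfpm2, whose level was lower at P0.5 by a log2 difference of -0.44 (SE 0.20, edgeR adjusted p = 0.204). Gata3 was at -0.36 (SE 0.17, edgeR adjusted p = 0.223), and Tal1 (-0.17, SE 0.14), Sox14 (-0.12, SE 0.23), Gata2 (0.28, SE 0.27) and Zfpm1 (0.37, SE 0.26) had adjusted p-values from 0.414 to 0.789.

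The plates of the stages overlapped for all 6 genes, where 9.36% of all genes lay higher and 11.4% lower on every P0.5 plate than on any E16.5 plate. Whether Gata3 passed depended on the filter and on 1 plate. With all plates in and no filter on low counts, Gata3, Tal2 and Zfpm2 passed edgeR's test. VGAT E16.5 replicate 2 was the E16.5 plate with the lowest Gata3 level. It had 40.4 CPM of summed microglia markers (3.49 to 6.83 on the other VGAT plates but P0.5 replicate 2, which has 56.5). Without VGAT E16.5 replicate 2, the log2 difference of Gata3 was -0.51 with an edgeR adjusted p of 0.0399. The same plate holds 47.4% of the 135 Hy-like cells, a cluster described further on in which Gata3 was low (27.5 ± 15.4 CPM, n = 6 plates). The part of these cells in the result was not tested. With the stage taken from the second label of the cell names, none of the 6 passed either, and only 1 gene of all did, while 3 of the 6 had an unadjusted p under 0.05, as did 854 of all genes. The directions of 4 of the 6 turned there: Gata3 was at a log2 difference of 0.45, Zfpm2 at 0.15, Tal1 at 0.12 and Gata2 at -0.65. The second label did not go with Pitx3 for the sort, and which label gives the stage was not tested.

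Among the GABA output genes, Slc32a1 rose towards birth by a log2 difference of 0.61 (SE 0.15) and Abat, which breaks GABA down, by 0.52 (SE 0.13), against a median of 0.02 over all genes. Gad1 (-0.14, SE 0.14), Gad2 (-0.21, SE 0.11) and Slc6a5, a glycine transporter gene (0.72, SE 0.63), did not pass. Of the other GABAergic transcription factors tested none rose, and Tcf7l2 (-1.16, SE 0.22), Bcl11b (-1.42, SE 0.36) and Sox21 (-1.30, SE 0.33) were among those that fell. Of 24 complex partners tested, Runx1t1 (-0.73, SE 0.15) and Id4 (-0.47, SE 0.12) fell and Nhlh1 (2.19, SE 0.56) rose.

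Whether the stage difference itself differed between the sorts could be asked of 7 genes, with 1 VGAT+Pitx3 plate at each stage. None passed (0 of 7, and 0% of all 15724 genes), none of the 7 had an unadjusted p under 0.05 although 998 genes did, and DESeq2 called 3 genes, none of them among the 7. With so few counts on the VGAT+Pitx3 plates, such a difference was not detectable for the GATA and TAL genes and Sox14.

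The VGAT cells are of many kinds, and the selector genes divided them along different lines. Cells were clustered with the 8 genes left out, which gave 20 clusters, named from marker genes of the study's own plots of these cells, so the names are no independent evidence. Differences between clusters are therefore given as levels, with the mean ± SD over plates that hold enough cells and with no test. Of these clusters, 14 clusters of VGAT cells held at least 5 cells on 3 or more plates and are ordered here.

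**Figure D2:**
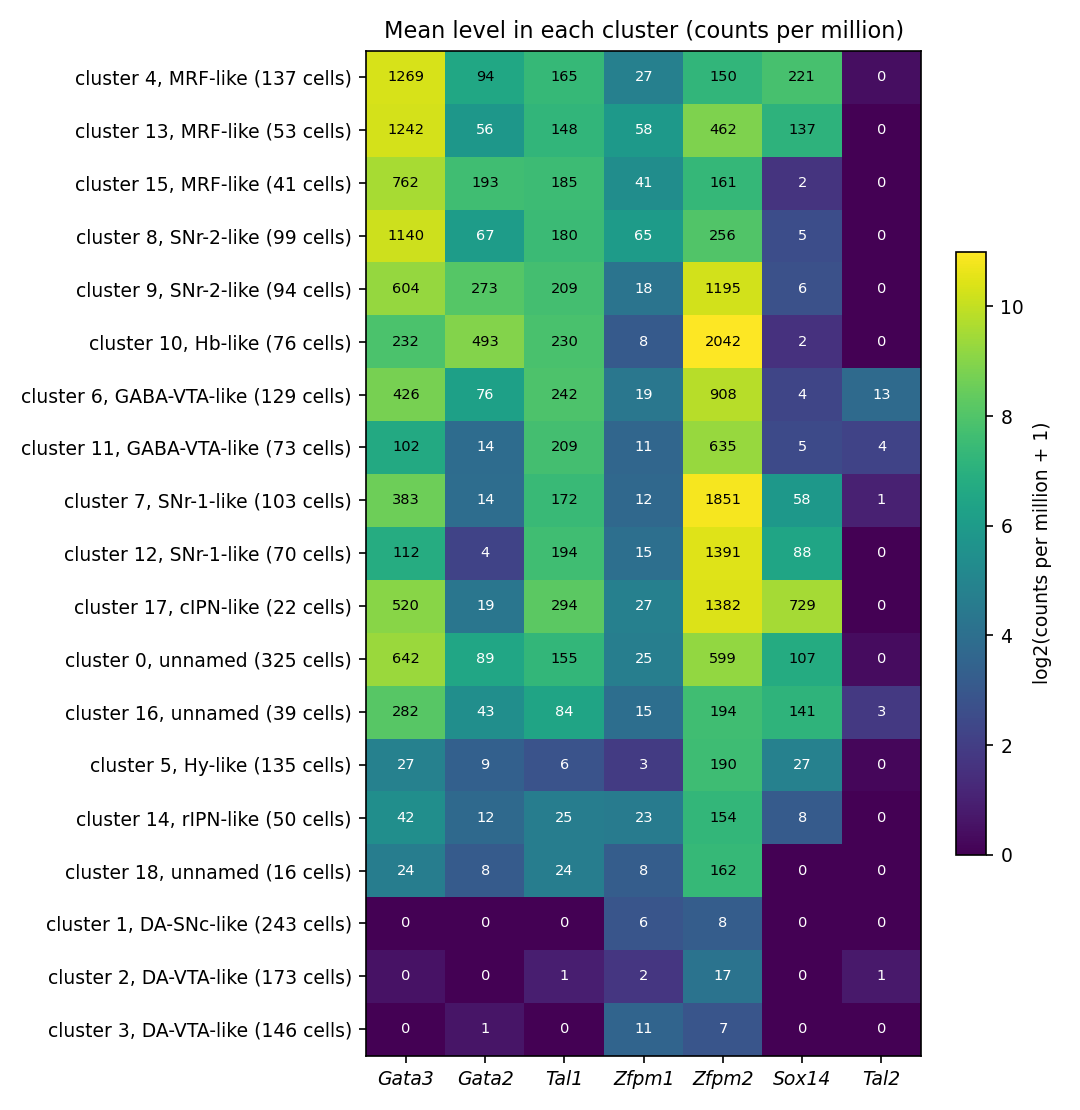
Mean level of 7 of the genes (columns) in each cluster with at least 5 cells on 2 or more plates (rows), printed as CPM averaged over plates and coloured by log2 of CPM plus 1. The clusters in the lowest 3 rows hold the VGAT+Pitx3 cells, and there Gata3, Gata2, Tal1 and Sox14 are at or near 0. Sox14 is split between clusters at 57.6 CPM or more and clusters at 27.3 CPM or less, and Tal1 is above 147 CPM in most clusters of VGAT cells.

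Gata3 was highest in a midbrain reticular formation-like (MRF-like) cluster with Otx1 and Gli3 (cluster 4, 1269 ± 271 CPM, n = 7 plates), in an MRF-like cluster with Npy and Nkx2-2 (cluster 13, 1242 ± 162, n = 3) and in a cluster like the Six3-positive substantia nigra pars reticulata (SNr-2-like) with Mafa (cluster 8, 1140 ± 189, n = 6). Their plates overlapped, so these 3 have no order. The level then went down through clusters whose plates overlapped with their neighbours to 232 ± 56.6 CPM (n = 5) in a hindbrain-like (Hb-like) cluster, and from there stepped down to 112 ± 50.1 CPM (n = 4) in SNr-1-like cluster 12 and 102 ± 20.8 CPM (n = 5) in a ventral tegmental area-like (GABA-VTA-like) cluster with Neurod6 (cluster 11). The lowest levels, 42.0 ± 14.4 CPM in the rIPN-like cluster (n = 3) and 27.5 ± 15.4 CPM in the Hy-like cluster (n = 6), lay below all plates of every other cluster but the Onecut-positive one, whose plates ran from 8.76 to 572 CPM. The share of thinned cells with Gata3 was 98.5% in the Otx1 cluster, 15.2% in the Hy-like cluster and 10.6% in the rIPN-like cluster, and all of these lie above the 0.334% of the VGAT+Pitx3 plate at E16.5.

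Gata2 had another order. It was highest in the Hb-like cluster, which holds Calb1, Lamp5 and the glycine transporter gene Slc6a5 (cluster 10, 493 ± 277 CPM, n = 5), where Gata3 was only 10th of 14, followed by an SNr-2-like cluster with Tcf7l2 and Sox1 (cluster 9, 273 ± 104, n = 6) and an MRF-like cluster with Tac1 and Rln3 (cluster 15, 193 ± 46.0, n = 4). The plates of these 3 overlapped in turn and lay above all plates of the next cluster (94.0 ± 21.3, n = 7). The Hb-like cluster held 5.21% of VGAT cells and 23.7% of Gata2 counts. No thinned cell of the Neurod6 cluster, the rIPN-like cluster, the Hy-like cluster or cluster 12 had a Gata2 count.

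Tal1 was even over most clusters. In 11 of the 14 it lay between 148 and 242 CPM, with plates that overlapped from each cluster to the next, and it was found in 42.9% to 70.7% of thinned cells there. Only an Onecut-positive cluster (cluster 16, 84.3 ± 58.9, n = 6), the rIPN-like cluster (24.6 ± 16, n = 3) and the Hy-like cluster (6.02 ± 4.72, n = 6) were lower. The SNr-1-like and Neurod6 clusters, with Gata2 at 3.69 to 14.1 CPM, had Tal1 at 172 to 209 CPM.

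Sox14 levels differed widely between clusters. It was at 221 ± 89.7 CPM (n = 7) in the Otx1 MRF-like cluster, at 141 ± 90.7 (n = 6) in the Onecut cluster, at 137 ± 32.7 (n = 3) in the Npy MRF-like cluster and at 107 ± 67.1 (n = 7) in the largest, unnamed cluster with Sorcs1 and Pnoc (cluster 0), with 87.7 ± 31.9 and 57.6 ± 27.7 CPM in the SNr-1-like clusters. In 6 clusters, among them both SNr-2-like clusters, both GABA-VTA-like clusters, the Hb-like and the Tac1 MRF-like cluster, it was at 1.92 to 5.7 CPM. The rIPN-like cluster had 7.99 ± 8.43 CPM (n = 3), and the Hy-like cluster had 27.3 ± 49.7 CPM (n = 6), with plates from 0 to 126 CPM. A caudal interpeduncular nucleus-like (cIPN-like) cluster of 22 cells had 729 ± 216 CPM, but on 2 plates only. The Sorcs1 cluster and the Otx1 cluster held 35.2% and 26.8% of all Sox14 counts in VGAT cells.

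The cofactors had different orders. Zfpm2 was highest in the Hb-like cluster (2042 ± 549 CPM, n = 5) and SNr-1-like cluster 7 (1851 ± 708, n = 6) and lowest in the Otx1 MRF-like (150 ± 79.6, n = 7), rIPN-like (154 ± 31.4, n = 3), Tac1 MRF-like (161 ± 131, n = 4), Hy-like (190 ± 92.4, n = 6) and Onecut (194 ± 74.4, n = 6) clusters, whose plates overlapped. These include clusters where Gata3 was highest and clusters where it was lowest. Zfpm1 was highest in the Mafa SNr-2-like cluster (64.9 ± 32.6, n = 6) and the Npy MRF-like cluster (58.4 ± 36.5, n = 3). Over the 14 clusters, which share plates, the log2 levels of Gata3 and Zfpm1 went together (Pearson r = 0.74, Spearman rho = 0.80), those of Gata2 and Gata3 less so (0.63 and 0.61), those of Gata3 and Zfpm2 hardly (0.03 and -0.20), and those of Zfpm1 and Zfpm2 were weakly opposed (-0.27 and -0.45), as a description with no test. Tal2, with 60 counts in VGAT cells, had 47 of them (78.3%) in GABA-VTA-like cluster 6, which holds 8.70% of VGAT cells.

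The next comparisons ask what else a cell expresses when it has a count of 1 of these genes. VGAT cells were divided by whether the thinned cell had a count of Gata3, Gata2, Tal1 or Sox14, all counts were summed per plate and side, and the sides were compared within plates over 7 plates. Cells with Gata3 were slightly deeper than those without (mean of plate medians 20719 against 17349 counts per cell), as were those with Gata2 (21054 against 18936) and Tal1 (20180 against 18756), and not those with Sox14 (18696 against 19397). The share of a gene that differs between plates is taken out by fitting each plate as a block, and without that block none of the other selector genes passed in any of the 4 comparisons.

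**Figure D3:**
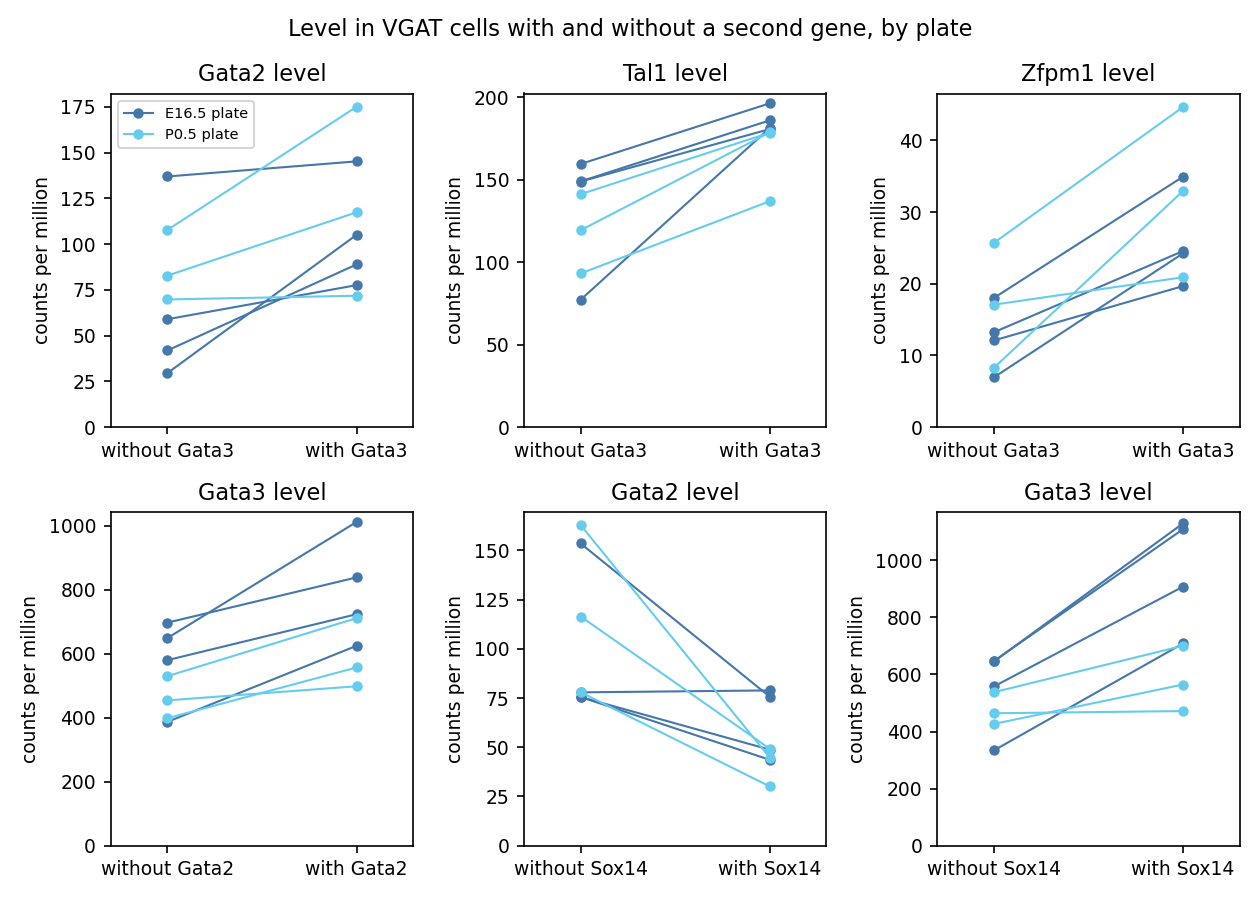
Level of a gene, in TMM-scaled CPM, in the summed VGAT cells without and with a count of a second gene, for the 6 pairs that passed the test. Each line joins the sides of 1 plate, with E16.5 plates in dark and P0.5 plates in light blue. Gata2, Tal1 and Zfpm1 go up from cells without to cells with Gata3 on 7 of 7 plates, and Gata2 goes down on 6 of 7 plates from cells without to cells with Sox14.

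Cells with Gata3 (914, against 494 without) also had more RNA of Gata2, Tal1 and Zfpm1. These 3 of the 5 genes tested rose, where 2.62% of all 11224 genes passed the test, 1.18% higher and 1.43% lower. Gata2 was at 112 ± 37.6 CPM in cells with Gata3 and at 75.4 ± 37.5 CPM in cells without (log2 difference 0.68, SE 0.16, edgeR adjusted p = 0.0238, higher on 7 of 7 plates). Tal1 was at 177 ± 18.7 against 127 ± 31.4 CPM (0.50, SE 0.10, edgeR adjusted p = 0.0102, 7 of 7). Zfpm1, whose protein binds GATA factors, was at 28.9 ± 9.04 against 14.5 ± 6.43 CPM (0.96, SE 0.18, edgeR adjusted p = 0.00504, 7 of 7).

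Per plate the Zfpm1 levels were 34.9, 24.6, 24.2 and 19.7 CPM with Gata3 and 18, 13.2, 6.95 and 12.1 CPM without at E16.5, and 33.0, 44.7 and 20.9 against 8.28, 25.7 and 17.1 CPM at P0.5. Each plate was higher on the side with Gata3, although the sides overlap when plates are mixed. Sox14 (0.69, SE 0.20, edgeR adjusted p = 0.102, higher on 6 of 7 plates) and Zfpm2 (-0.34, SE 0.11, edgeR adjusted p = 0.134, lower on 6 of 7) did not pass. Leaving out VGAT P0.5 replicate 1 brought Sox14 past the test, and leaving out VGAT E16.5 replicate 2 brought Zfpm2 past it. The Gata2 call rests on single plates: its adjusted p was 0.0934 when VGAT E16.5 replicate 2 was left out and 0.0651 when VGAT P0.5 replicate 3 was. The Zfpm1 call was lost when cells were divided before thinning (log2 difference 1.09, edgeR adjusted p = 0.213) and when thinned counts were summed (0.83, adjusted p = 0.15), with differences close to the 0.96 above, and Gata2 was not called in the latter either.

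Part of the VGAT cells, in the Hy-like and rIPN-like clusters, have almost no GATA or TAL counts. When they were left out, a choice made after seeing the data, Gata2 (0.28, adjusted p = 0.596 by edgeR) and Tal1 (0.10, adjusted p = 0.702) no longer passed, Zfpm1 did (0.86, SE 0.19, adjusted p = 0.0212), and Zfpm2 was lower in cells with Gata3 (-0.71, SE 0.08, adjusted p = 0.00011). Over all alternatives the Zfpm2 log2 difference ran from -0.71 to 0.29, so its direction depends on the setting. Within single clusters, counts were fewer. The share of cells with Tal1 was higher beside Gata3 in 6 of 9 clusters, with exact 95% intervals that did not overlap in 1 of them, the Onecut cluster (40.9%, 20.7 to 63.6, against 0%, 0 to 19.5). The share with Zfpm1 was higher beside Gata3 in 4 of 9 clusters, with intervals that overlapped in each. For Zfpm2 it was likewise higher in 4 of 9 clusters, again with overlapping intervals in each.

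Other genes that rose in cells with Gata3 were led by 9230102O04Rik, whose entry lies inside Gata3 (2.23, SE 0.27), 9330158H04Rik (2.12, SE 0.22), the Hedgehog effector gene Gli3 (2.02, SE 0.35), Six3os1 (1.97, SE 0.20) and the homeobox gene Otx1 (1.86, SE 0.19). Those that fell were led by Dlx6os1 (-3.24, SE 0.25), Dcdc5 (-3.10, SE 0.43), Dlx1 (-3.05, SE 0.26), Isl1 (-3.04, SE 0.33) and Nhlh2 (-2.86, SE 0.31). Dlx1 and Isl1 are homeobox genes of forebrain GABAergic and other neurons, and Dlx1 is among the marker genes of the Hy-like cluster. Of the other GABAergic transcription factors 23 were tested, 5 rose (Otx1, Six3, Foxp2, Nkx2-2 and Foxp1) and 8 fell (among them Otp, Pax7, Dlx1, Pax8, Pax5, En2 and En1), with a list median of 0.03 against 0.00 (-0.00376).

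The GABA output genes Gad2 (616 against 472 CPM, log2 difference 0.39, SE 0.06) and Slc32a1 (254 against 207 CPM, 0.28, SE 0.06) were higher in cells with Gata3 on 7 of 7 plates each. The glycine transporter gene Slc6a5 (-1.85, SE 0.45) and Abat (-0.42, SE 0.10) were lower, and Gad1 did not pass. Of 23 complex partners tested, Id2 rose (1.60, SE 0.19) and Tcf4 (-1.13, SE 0.10) and Nhlh2 fell.

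Cells with Gata2 (292, against 1116) had more Gata3. Gata3 was the only 1 of 5 genes past the test, where 1.44% of all 10357 genes passed and 0.502% were higher, at 710 ± 175 against 528 ± 121 CPM (log2 difference 0.43, SE 0.07, edgeR adjusted p = 0.00319, higher on 7 of 7 plates). On the E16.5 plates the values were 724, 625, 1012 and 839 CPM with Gata2 and 580, 387, 649 and 697 CPM without, and on the P0.5 plates 499, 712 and 557 against 454, 530 and 399 CPM. Tal1 (0.34, edgeR adjusted p = 0.12) and Sox14 (-0.36, adjusted p = 0.693) did not pass.

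In single cells the same pair reads as 77.5% ± 6.59 of cells with Gata2 that also had Gata3, against 60.8% ± 7.4 of cells without Gata2. Without the Hy-like and rIPN-like cells, Gata3 no longer passed (0.22, SE 0.07, edgeR adjusted p = 0.157), and within clusters the share of cells with Gata3 was higher beside Gata2 in only 1 of 7 clusters, the Sorcs1 cluster (89.3%, 80.1 to 95.3, against 71.7%, 65.5 to 77.4).

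Among the genes that rose in cells with Gata2 were the calcium-binding protein gene Calb1 (2.5, SE 0.26), the nuclear receptor gene Nr4a2 (1.62, SE 0.16), Ell2 (1.49, SE 0.26), Kctd4 (1.47, SE 0.27) and Rprm (0.82, SE 0.14). Neurod6 (-4.46, SE 0.32), Dlx1 (-4.19, SE 0.30), Sp9 (-3.18, SE 0.27), C1ql1 (-2.87, SE 0.33) and Pax8 (-2.60, SE 0.44) led those that fell. Of the 20 other GABAergic factors tested, 7 rose, with Tcf7l2 (1.21, SE 0.22) and Meis2 (0.92, SE 0.18) at the top, and 4 fell, with Pax5 (-2.45, SE 0.30) and En2 (-1.51, SE 0.21) beside Dlx1 and Pax8. Lmo1, which bridges TAL and GATA proteins, rose (0.63, SE 0.10), and of the other 21 complex partners tested Tcf4 (-1.12, SE 0.22) and Runx1t1 (-0.39, SE 0.07) fell.

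Cells with Tal1 (641, against 767) gave the shortest list of differing genes. None of the 5 other selector genes tested passed, where 0.222% of all 11717 genes did, 0.0597% higher and 0.162% lower. Gata3 (655 ± 125 against 504 ± 144 CPM, log2 difference 0.39, SE 0.09, edgeR adjusted p = 0.0782), Zfpm2 (0.39, SE 0.10, adjusted p = 0.122) and Gata2 (0.61, SE 0.16, adjusted p = 0.168) were each higher on 6 of 7 plates and had an unadjusted p under 0.05, and the same 3 did with DESeq2, which also called none. Leaving out VGAT P0.5 replicate 3 alone brought Gata3 past the test (adjusted p = 0.0364), leaving out VGAT P0.5 replicate 1 brought Gata2 past it (0.0442) and leaving out VGAT E16.5 replicate 4 brought Zfpm2 past it (0.0162). Without the Hy-like and rIPN-like cells the differences were smaller and none passed, at 0.11 for Gata3 (SE 0.07, edgeR adjusted p = 0.889), 0.34 for Gata2 (SE 0.13, adjusted p = 0.678) and 0.18 for Zfpm2 (SE 0.09, adjusted p = 0.752). The genes that rose with the same sign on all plates were Wls (0.77, SE 0.13), Grm3 (0.43, SE 0.07) and Igsf5 (0.42, SE 0.08), and Dlx6os1 (-3.65, SE 0.31), Dlx1 (-3.63, SE 0.22) and Isl1 (-3.48, SE 0.31) led those that fell.

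Cells with Sox14 (240, against 1168) set the GATA genes apart. Of the 5 genes tested, Gata3 rose and Gata2 fell, where 1.86% of all 10522 genes passed, 0.95% higher and 0.912% lower. Gata3 was at 799 ± 257 against 516 ± 116 CPM (log2 difference 0.62, SE 0.10, edgeR adjusted p = 0.00155, higher on 7 of 7 plates). Gata2 was at 53.0 ± 17.8 against 106 ± 38.8 CPM (-0.85, SE 0.16, edgeR adjusted p = 0.00798, lower on 6 of 7 plates).

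Per plate, Gata2 was at 75.7, 43.6, 78.9 and 48.8 CPM in cells with Sox14 and at 154, 75.5, 77.9 and 75.5 CPM in the rest at E16.5, and at 49.2, 30.1 and 44.7 against 116, 77.9 and 163 CPM at P0.5. Only VGAT E16.5 replicate 3 did not follow the others, with nearly equal levels. Tal1 (0.21, SE 0.07, edgeR adjusted p = 0.217) and Zfpm2 (-0.19, SE 0.08, adjusted p = 0.416) did not pass. Both calls held without the Hy-like and rIPN-like cells (Gata2 -1.04, SE 0.17, edgeR adjusted p = 0.00196, and Gata3 0.47, SE 0.08, adjusted p = 0.00409). For Gata2 this setting could hardly have removed the call, because these clusters are low in both genes. Gata2 was at 9.35 and 12.4 CPM in them and Sox14 at 27.3 and 7.99 CPM. The Hb-like cluster and SNr-2-like cluster 9, with 23.7% and 19.5% of Gata2 counts and Sox14 at 1.92 and 5.70 CPM, were left in. When thinned counts were summed, Gata2 was not called (-0.74, edgeR adjusted p = 0.157).

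**Figure D4:**
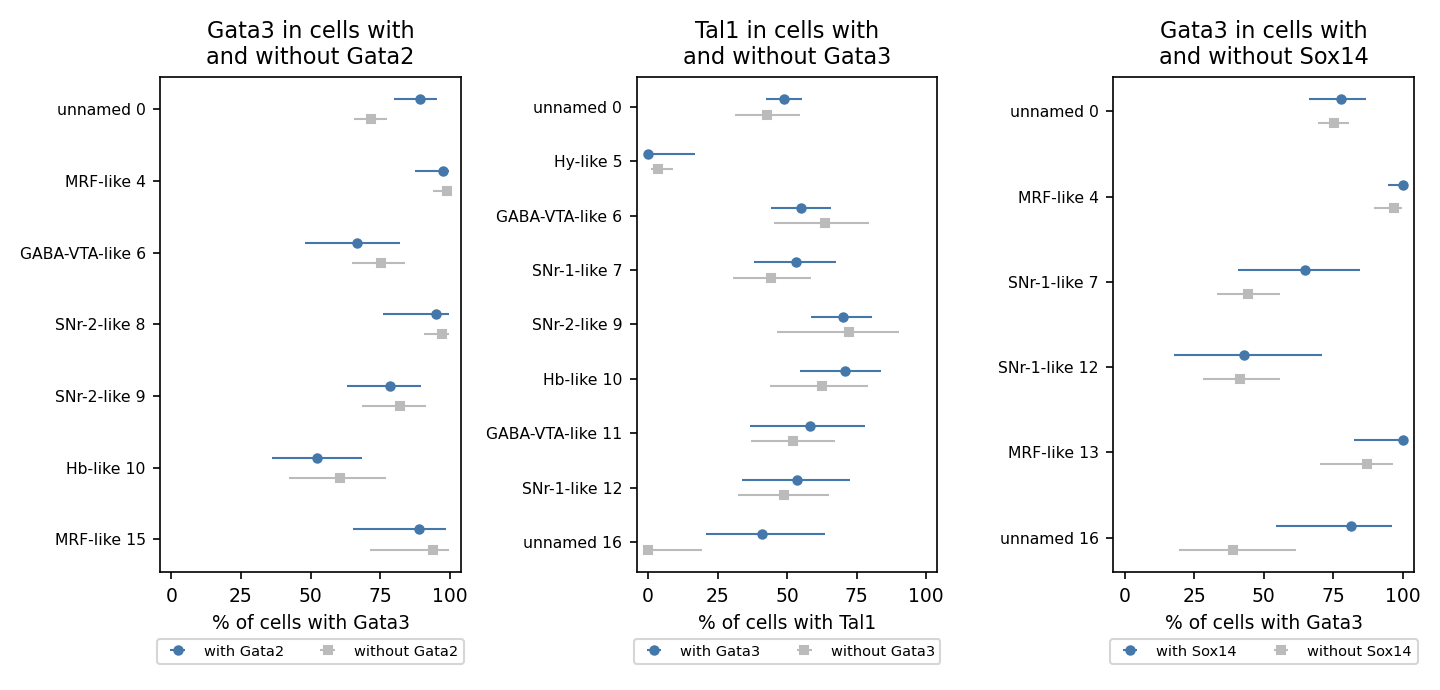
Share of thinned VGAT cells with a gene, in percent, among cells with (blue) and without (grey) a second gene, cluster by cluster. Bars are exact 95% binomial intervals, which cover counting error only. Gata3 is higher beside Sox14 in 6 of 6 clusters, but these intervals overlap in each of them.

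Within clusters, the share of cells with Gata3 was higher beside Sox14 in 6 of 6 clusters. The share with Gata2 was lower in 5 clusters, in 1 of them by little (23.6% against 24.2% in the Sorcs1 cluster), and SNr-1-like cluster 12 had no cell with Gata2. The share with Tal1 was higher beside Sox14 in only 1 of 6 clusters, although the summed Tal1 level was higher on 7 of 7 plates. The exact 95% intervals overlapped in each cluster for all 3 genes. The share of Gata2 cells over a whole plate did not show the difference (a mean of -1.49 percentage points ± 13.2, from 21.5% ± 4.36 without Sox14, and higher beside Sox14 on 3 of 7 plates), whereas the share of Gata3 cells did (78.0% ± 8.75 against 61.4% ± 7.62, higher on 6 of 7 plates).

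Among all genes, Gm47757, an entry 15793 bases from Sox14 on the same strand (chr9:99848283-99858313), led those that rose in cells with Sox14 (55.8 ± 34.8 against 4.85 ± 1.67 CPM, log2 difference 3.36, SE 0.25). It was followed by 9330158H04Rik (1.60, SE 0.21), the sorting receptor gene Sorcs1 (1.53, SE 0.13), the muscarinic receptor gene Chrm2 (1.38, SE 0.13) and Dchs2 (1.29, SE 0.19). Those that fell were led by 9030622O22Rik (-3.64, SE 0.29), Foxa2 (-3.48, SE 0.34), Prox1 (-3.33, SE 0.19), Neurod6 (-3.15, SE 0.28) and St18 (-2.76, SE 0.19). Foxa2, Prox1 and Neurod6 are among the marker genes of the GABA-VTA-like clusters. Of 22 other GABAergic factors tested, Otx1 (1.15, SE 0.20) and Bcl11b (0.62, SE 0.15) rose and Meis1 (-2.15, SE 0.30) fell, and of 22 complex partners Id2 (0.94, SE 0.19) rose and Tcf4 (-0.95, SE 0.14), Lmo4 (-0.46, SE 0.11) and Id4 (-0.39, SE 0.08) fell.

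Among the 9360 genes found in at least 5% of thinned VGAT cells, the gene whose detection was most like that of Tal1 was Gata3 (phi coefficient 0.17, mean of 7 plates), and Gata3 was 4th for Gata2 (0.14), after Grm8 (0.16), Tenm4 and Bfar. For Gata3 the first were Six3 (0.20), Robo2 and Asic4, for Sox14 9330158H04Rik (0.20), Zfhx3 and Chrm2, and for Zfpm2 Nxph1 (0.24), Lmo1 and Nfia. These coefficients are weak, as sparse counts make them, and are given as a description only.

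The deposited files separate spliced from intronic counts, and the genes shown here differed widely in their intronic share. Tal2 and Helt, with 60 counts and 1 count on the VGAT plates, are left out. On the VGAT plates Sox14 had no intronic count, Gata2 0% to 1.3%, Tal1 2.52% to 4.79%, Zfpm1 1.41% to 15.6% and Gata3 8.32% to 10.7%, all below the 20.1% to 30.0% of all genes together. Zfpm2 had 81.0% to 88.1%, so that most of its counts came from introns, and its levels above are chiefly intronic counts.

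**Figure D5:**
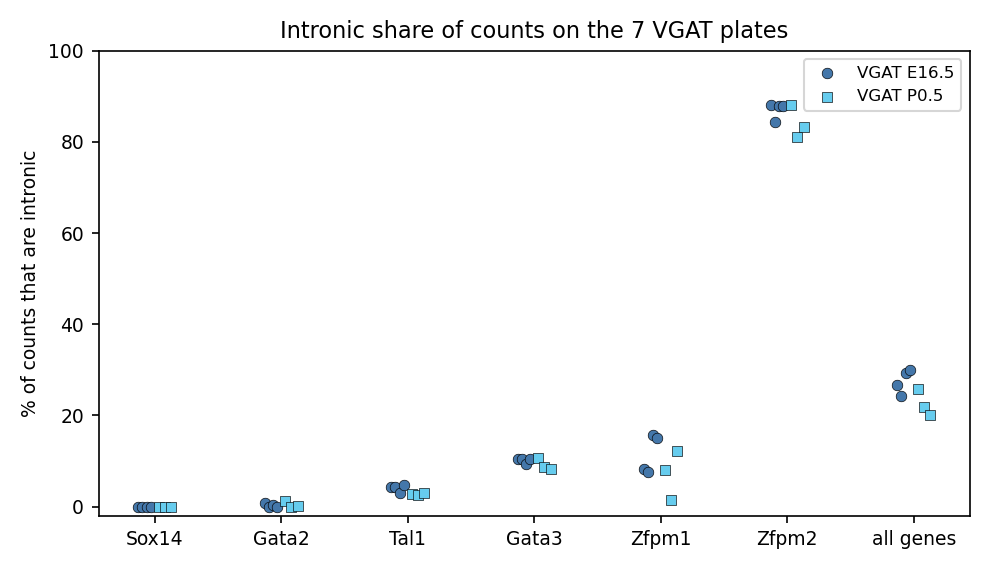
Share of the counts of each gene that are intronic on each VGAT plate, in percent, beside the share over all genes of that plate, with 1 point per plate. Zfpm2 lies at 81.0% or above on every plate, far over the level of all genes, and the other genes lie below it.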

How the data were processed

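Single cells of 9 plates were measured by CEL-seq2 and, according to the submitters' processing notes, reads were mapped with STAR to mm10. The deposited tables hold estimated counts (expected counts), that is, molecule counts the authors corrected for barcode collisions, for spliced, intronic and total RNA, so that values need not be whole. From these, counts were summed over the cells of each plate and rounded, and levels are TMM-scaled CPM. No doublet caller was run, and 119 cells above 2 times the median count of their plate were left out in an alternative. Cells are named by plate and well and not by barcode, so barcodes shared between plates were not counted. Tests were edgeR's quasi-likelihood test (edgeR 4.0.16, R 4.3.3, filterByExpr, Benjamini-Hochberg, threshold 0.05) over all genes, checked on simulated data, with DESeq2 1.42.0, other filters, depths and left-out plates as alternatives. The SE of a log2 difference was taken as its size divided by the square root of F.

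Cells with and without a gene were told apart after each cell was thinned to 4000 counts (79 of 2035 cells were too shallow), and sides with at least 5 cells on each of the 7 VGAT plates were compared with plate as a block. The fit between sorts used all 9 plates with stage as a covariate, and the fit between stages the 7 VGAT plates. Clusters came from scanpy 1.11.5 (Louvain, 40 principal components, 15 neighbours) with the 8 genes left out. Intervals and limits for a count of 0 (3 counts) cover counting error only. Named beyond the 8 genes were members of the partner, GABA and family lists past the test, the 5 genes with the largest difference in each direction that had 1 sign on all plates, and the 5 genes most alike in detection. The members and lists were chosen with earlier results of these data known. Some genes of these lists are not reported here. The strand setting of the counting is not given in the sources used here.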

Additional observations from a re-analysis of the deposited data

Results flagged for a closer look

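In 4 of the 20 groups of 4 plates looked at, 1 plate lay apart from the other 3 by Dixon's criterion, where chance alone gives about 1 in 20. Gata2 was at 142 CPM on VGAT E16.5 replicate 1, against 69.6 to 78.8 CPM on the other E16.5 VGAT plates. The intronic share of Gata3 was 9.28% on VGAT E16.5 replicate 3, against 10.4% to 10.5%, and that of Zfpm2 was 84.3% on VGAT E16.5 replicate 2, against 87.9% to 88.0%. Helt was at 0.246 CPM on VGAT E16.5 replicate 1, which is 1 count, and at 0 on the others. A gene with counts on 1 plate only meets the criterion whatever its level. The Helt case therefore carries no weight in the comparison with 1 in 20.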

How the results depend on the processing

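The 6 genes lower on the VGAT+Pitx3 plates were called under every alternative run, and no called difference turned its sign. Between stages, 0 genes passed, 3 without the filter on low counts (Gata3, Tal2 and Zfpm2), and 0 to 1 when single plates were left out. For cells with Gata3, 3 genes passed, 5 without the filter, 0 without the plate block, 2 (Gata2 and Tal1) when cells were divided before thinning, 2 (Sox14 and Tal1) when thinned counts were summed, 2 without the Hy-like and rIPN-like cells and 2 to 4 when single plates were left out. For cells with Gata2, 1 passed, 3 without the filter, 2 when cells were divided before thinning, 0 without the plate block, 1 to 2 when single plates were left out and 0 without the Hy-like and rIPN-like cells, a setting added after seeing the data. For cells with Tal1, 0 passed, 3 without the filter, 2 before thinning, 2 at a depth of 8000 counts, 2 when thinned counts were summed and 0 to 1 when single plates were left out. For cells with Sox14, 2 passed, 3 without the filter and 3 at a depth of 8000 counts (Zfpm2 was added in both), 0 without the plate block and 1 (Gata3) when thinned counts were summed. The share of VGAT cells with at least 1 of Gata2, Gata3 and Tal1 was 77.6%, and 84.2% at 8000 counts, 88.6% without thinning and 56.3% when 2 counts were asked for. The cause of these changes was not tested, other than that deeper cells and a lower limit find more.

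Of the recomputed main counts and shares, 87 stayed within their limits and 22 moved. The replicate numbers of the labels do not pair plates: same-numbered E16.5 and P0.5 plates had correlations of their deviations of 0.032, 0.028 and 0.029, and other pairs -0.063 to 0.059. With a replicate block the members called were 0 between stages and 6 between sorts, while all genes called between stages went from 624 to 210. Depth limits Tal2 and Helt, and with 1 VGAT+Pitx3 plate a stage the interaction.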
